A study of Mus musculus with 9 samples.

Results

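The genes described here encode the subunits of hypoxia-inducible factor (HIF) and the enzymes that set its activity by oxygen. They were chosen by name from this pathway, with earlier results of these data known. They comprised 8 of the 47729 genes in the deposited table: Hif1a, Epas1, Arnt, Egln1, Egln2, Egln3, Vhl and Hif1an. All 8 were found by symbol, and all 8 were among the 15623 genes tested, the lowest of their 72 values being 6.64 against a filter of 3. Gene expression was measured by RNA sequencing in synovial fibroblasts, which form the lining of joints, cultured for 5 passages from collagenase-digested paws of wild-type BALB/c mice. For the primed group (3 libraries), left paws received monosodium urate (MSU) crystals, the crystals of gout, on day 0 and again on day 9. For the non-primed group (3 libraries), right paws received them on day 9 alone, and the naive group (3 libraries) had no injection, with no paw side given. The labels give day 18 for RNA extraction and day 9 for the last injection of both injected groups. How 5 passages in culture fit between these days is unclear. Paw side and priming cannot be told apart, and no label gives an animal for a culture, so p-values measure only the spread between these samples. Values are rlog values, a log2 scale of normalised counts on which 1 unit is a doubling, and the depth of the libraries is unknown.

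HIF is a pair of an oxygen-regulated alpha subunit, HIF1A or EPAS1 (HIF2A), with the constantly present beta subunit ARNT. With oxygen available, the prolyl hydroxylases EGLN1, EGLN2 and EGLN3 mark the alpha subunit for capture by VHL and for proteasomal breakdown, and the asparaginyl hydroxylase HIF1AN (FIH) blocks its contact with coactivators. Most of this control acts on protein, which was not measured here. EGLN1 and EGLN3 are themselves known HIF targets, while EGLN2 is not known as a hypoxia-induced gene. In the joint, HIF is known from the inflamed synovium, where oxygen is low.

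Of the 8 genes, Hif1a, Egln1 and Egln3 were higher in all 6 cultures from injected paws than in all 3 naive cultures. The other subunits and regulators, Epas1, Arnt, Egln2, Vhl and Hif1an, showed no such separation of injected from naive libraries. Over all tested genes, 6.13% separated in this direction and 5.34% in the other, in which none of the 8 did. Only Egln1 in non-primed against naive cultures passed the threshold of an adjusted p below 0.05 (limma, Benjamini-Hochberg over all tested genes). No member passed between primed and non-primed cultures.

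The libraries differed in ways that bear on these genes. The median SD between replicates over tested genes was 0.14 in primed, 0.10 in non-primed and 0.22 in naive libraries. The 12 fibroblast markers were all expressed, with a mean of 13.56 to 14.09 in primed, 13.92 to 14.02 in non-primed and 13.48 to 14.30 in naive libraries, and Col3a1, a fibrillar collagen, was the highest of them at 18.56, 18.73 and 18.09 on average in primed, non-primed and naive cultures. The mean of the 14 macrophage markers was 9.69 to 10.88 in primed, 9.95 to 10.49 in non-primed and 7.45 to 9.99 in naive libraries, so macrophage RNA was present in cultures labelled as fibroblasts, with Lyz2, a lysozyme of myeloid cells, at 12.75 to 16.53. Of the 8 lymphocyte and granulocyte markers none passed the filter, and Cd3e and S100a9 stood at 0 in all libraries. The mean of the 5 tested skeletal muscle markers was 4.78 to 6.15 in primed, 5.08 to 6.04 in non-primed and 4.35 to 4.65 in naive libraries. The endothelial mean (5 of 8 markers tested) was 5.18 to 5.69 in primed, 5.24 to 5.72 in non-primed and 4.70 to 5.99 in naive libraries. In such bulk cultures, more cells of a type and more RNA per cell cannot be told apart.

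Among the alpha subunits, Hif1a was the more abundant per exon length and higher in injected cultures (ENSMUSG00000021109, GRCm38 chromosome 12, 73901375 to 73947530, plus strand). It stood at 14.65, 14.70 and 14.88 in primed cultures 1 to 3, at 14.83, 14.87 and 14.98 in non-primed cultures and at 13.93, 14.31 and 13.97 in naive cultures. Each injected library lay above each naive one, and naive 2 was the nearest of the naive libraries. The mean was 14.74 ± 0.12 in primed, 14.89 ± 0.08 in non-primed and 14.07 ± 0.21 in naive cultures (SD, n = 3 each). The difference from naive was 0.67 in primed cultures (SE 0.13, 95% interval 0.37 to 0.97, limma adjusted p = 0.09995) and 0.82 in non-primed cultures (SE 0.13, 0.52 to 1.13, adjusted p = 0.0583), so neither passed. On the rlog scale these are 1.59-fold and 1.77-fold, and 6.60% and 4.74% of tested genes differed by more in those comparisons. Without naive 2 the differences were 0.79 (adjusted p = 0.0158) and 0.94 (adjusted p = 0.0114), and both passed, as did the non-primed one without naive 3 (0.77, adjusted p = 0.0412). Of 19 alternative settings, 17 in primed and 16 in non-primed cultures did not pass. Their limma adjusted p reached 0.397 in primed and 0.293 in non-primed cultures. Gm15283, which overlaps Hif1a on the opposite strand in the annotation, was at 2.08 to 2.82, below the filter.

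Epas1, the other alpha subunit and best known from endothelium and fat, showed no such separation and was the most variable member (ENSMUSG00000024140, chromosome 17, 86753700 to 86833410, plus strand). It was at 7.62, 7.05 and 7.15 in primed cultures 1 to 3, at 7.11, 6.98 and 7.39 in non-primed cultures and at 7.81, 8.59 and 6.91 in naive cultures. The naive libraries held both the highest and the lowest value, so the groups overlapped. The difference from naive was -0.49 in primed cultures (SE 0.37, 95% interval -1.34 to 0.36, limma adjusted p = 0.527) and -0.61 in non-primed cultures (SE 0.37, -1.46 to 0.24, adjusted p = 0.486). These values rested on naive 2 and naive 3: without naive 2 they were -0.08 and -0.20, and without naive 3 -0.92 and -1.04, none past the threshold. The mean of the 4 tested adipocyte markers was highest in the same libraries as Epas1, at 8.28 in naive 2, 8.10 in naive 1 and 6.48 in primed 1 against 5.08 to 5.69 elsewhere. Of the 8 endothelial markers, Cdh5, Tie1 and Emcn were below the filter, each with its highest value in naive 2. Of the 5 tested, Pecam1 was highest in naive 2 (4.1) and Tek and Erg in naive 3 (9.38 and 7.91). Kdr was highest in primed 2 (5.49) and Vwf in non-primed 2 (6.02). The mean of the 7 tested pericyte markers was 7.29 in primed 1, the lowest of all libraries, and 7.73 in naive 3, where Epas1 was lowest. Single pericyte markers differed from this mean. Rgs5 was highest in the same libraries as Epas1, at 10.34 in naive 2, 8.97 in naive 1 and 8.12 in primed 1. Myh11 was highest in naive 3, at 8.19. The parts of adipocyte, endothelial and pericyte RNA in the Epas1 level were not tested.

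Arnt, the shared beta subunit, was nearly level (ENSMUSG00000015522, chromosome 3, 95434388 to 95497240, plus strand). Its values ran from 10.84 to 10.96 in primed, from 10.88 to 10.97 in non-primed and from 10.75 to 11.07 in naive cultures. The difference from naive was -0.03 in primed cultures (95% interval -0.24 to 0.19) and -0.02 in non-primed cultures (-0.23 to 0.19).

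**Figure D1:**
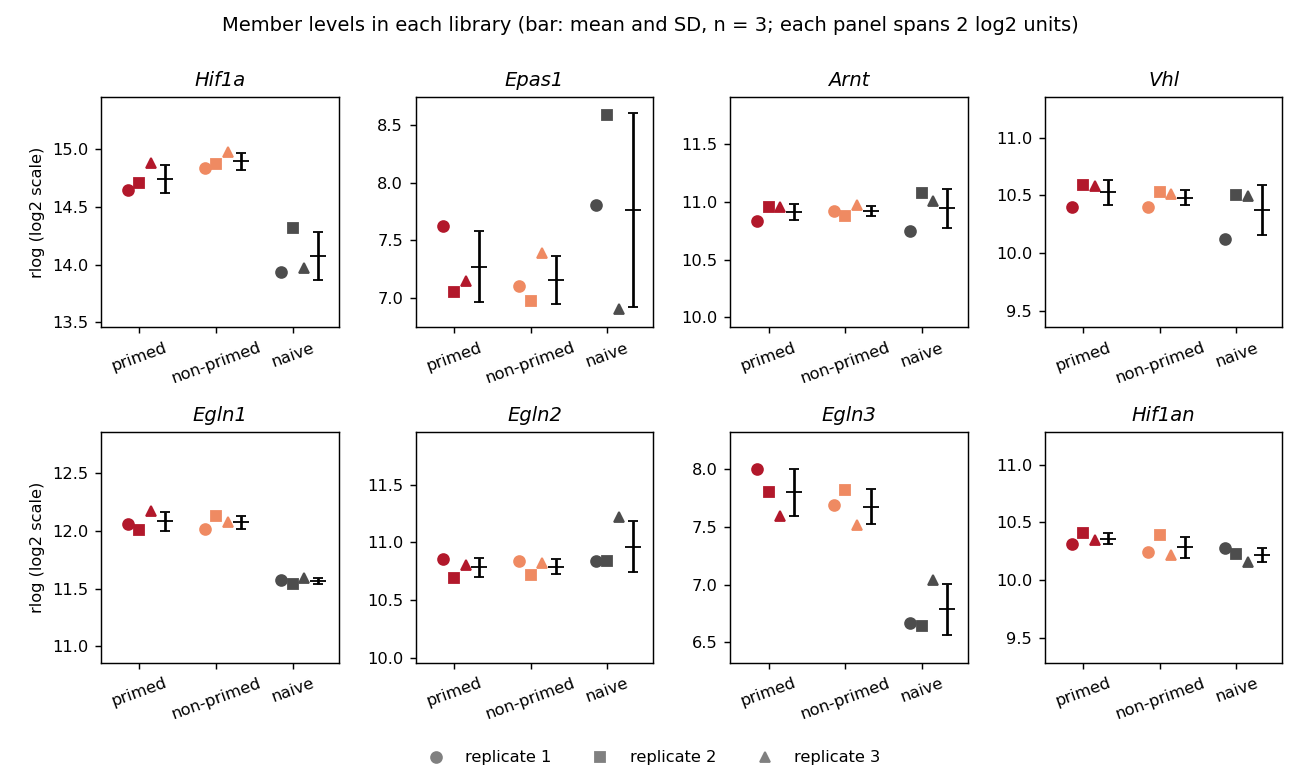
Level of each gene in each library as rlog on a log2 scale, by group, with points for replicates 1 to 3 and a bar for mean and SD (n = 3). Hif1a, Egln1 and Egln3 show all 6 injected libraries above the naive ones, whereas Epas1 spreads from 6.91 to 8.59 within the naive group.

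Of the prolyl hydroxylases, Egln1, the main oxygen sensor for HIF1A, separated the groups most tightly (ENSMUSG00000031987, chromosome 8, 124908587 to 124949324, minus strand). It was at 12.06, 12.01 and 12.17 in primed cultures 1 to 3, at 12.02, 12.13 and 12.08 in non-primed cultures and at 11.58, 11.54 and 11.59 in naive cultures. The spread within groups was small, with means of 12.08 ± 0.08 in primed, 12.07 ± 0.06 in non-primed and 11.57 ± 0.03 in naive cultures (SD, n = 3 each). Egln1 rose in non-primed cultures by 0.51 (SE 0.07, 95% interval 0.35 to 0.67, limma adjusted p = 0.0483), a 1.42-fold change on the rlog scale. In primed cultures it differed by 0.51 (SE 0.07, 0.35 to 0.68, adjusted p = 0.0519), which did not pass. The size was stable, at 0.46 to 0.56 in non-primed and 0.47 to 0.59 in primed cultures over 19 alternatives, but both adjusted p lay near the threshold. The non-primed call ended in 15 of the alternatives, among them leaving out naive 1 or any 1 primed or non-primed library (adjusted p = 0.0504 to 0.263) and the replicate block (adjusted p = 0.0744).

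Egln3, the hydroxylase known for strong induction by low oxygen, had the largest difference among the 8 genes (ENSMUSG00000035105, chromosome 12, 54178981 to 54203860, minus strand). Its values were 8.001, 7.80 and 7.59 in primed cultures 1 to 3, 7.69, 7.82 and 7.52 in non-primed cultures and 6.67, 6.64 and 7.04 in naive cultures. The groups did not overlap, with naive 3 the nearest of the naive libraries. It averaged 7.80 ± 0.20 in primed, 7.68 ± 0.15 in non-primed and 6.79 ± 0.22 in naive cultures (SD, n = 3 each). The difference from naive was 1.01 in primed cultures (SE 0.17, 95% interval 0.64 to 1.39, limma adjusted p = 0.0810), or 2.02-fold, and 0.89 in non-primed cultures (SE 0.17, 0.51 to 1.27, adjusted p = 0.0834), or 1.86-fold. Neither passed, although 2.84% and 4.07% of tested genes differed by more. Without naive 3 the differences were 1.14 (adjusted p = 0.0273) and 1.02 (adjusted p = 0.0285), and without naive 2 the primed difference of 0.94 also passed (adjusted p = 0.0443). Most of the 19 alternatives did not pass, 16 in primed and 17 in non-primed cultures. Their limma adjusted p reached 0.394 in primed and 0.343 in non-primed cultures.

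Egln2, the hydroxylase not known as a HIF target, did not share this pattern (ENSMUSG00000058709, chromosome 7, 27158658 to 27166802, minus strand). It ran from 10.69 to 10.86 in primed, from 10.71 to 10.84 in non-primed and from 10.83 to 11.22 in naive cultures, with naive 3 highest. The difference from naive was -0.18 in primed (95% interval -0.43 to 0.07, limma adjusted p = 0.437) and -0.17 in non-primed cultures (-0.43 to 0.08, adjusted p = 0.507). Hif1an, which encodes the asparaginyl hydroxylase, ran from 10.32 to 10.41 in primed, from 10.22 to 10.39 in non-primed and from 10.16 to 10.28 in naive cultures (ENSMUSG00000036450, chromosome 19, 44562850 to 44576274, plus strand). Its primed libraries lay above the naive ones by a mean of 0.14 (95% interval -0.03 to 0.31, adjusted p = 0.382), and its non-primed libraries overlapped them.

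Vhl, the substrate receptor that captures hydroxylated HIF alpha subunits, was at 10.40, 10.59 and 10.58 in primed cultures 1 to 3, at 10.40, 10.53 and 10.51 in non-primed cultures and at 10.12, 10.50 and 10.49 in naive cultures (ENSMUSG00000033933, chromosome 6, 113623959 to 113631633, plus strand). Only naive 1 stood below the injected libraries. The difference from naive was 0.15 in primed (95% interval -0.10 to 0.41, limma adjusted p = 0.518) and 0.11 in non-primed cultures (-0.15 to 0.37, adjusted p = 0.694), and without naive 1 it was 0.03 and -0.015.

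**Figure D2:**
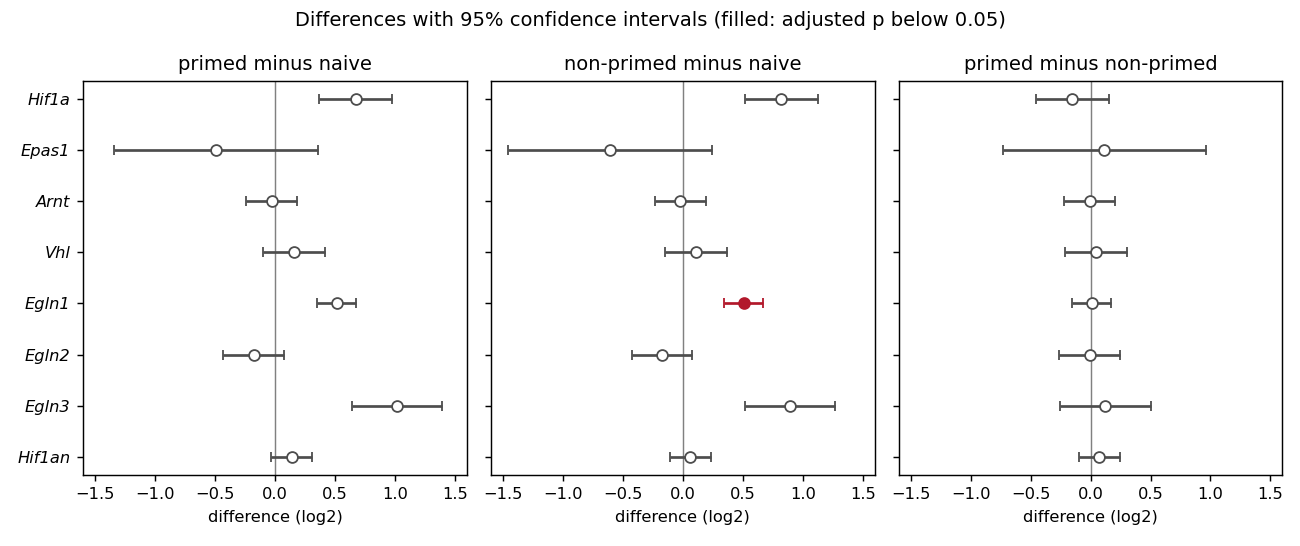
Differences in rlog (log2) of the 8 genes in 3 comparisons, with 95% confidence intervals of the limma fit and filled points where the adjusted p was below 0.05. The intervals of Hif1a, Egln1 and Egln3 lie above 0 against naive cultures, and every interval of primed against non-primed cultures spans 0.

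Read against all genes, the counts were as follows. In primed against naive cultures, 0 of the 8 members passed in limma where 16 genes (0.102%) did, and 3 had an unadjusted p below 0.05 where 16.9% of genes did. In non-primed against naive cultures, 1 of the 8 passed where 22 genes (0.141%) did, and 3 had an unadjusted p below 0.05 where 15.4% of genes did. Groups did not overlap for 4 members in primed cultures, all higher, and for 3 in non-primed cultures, all higher. The shares of all genes were 8.97% higher and 8.18% lower in the primed comparison, and 11.6% higher and 10.3% lower in the non-primed one. With 3 libraries in each group, the smallest two-sided p of an exact permutation test is 0.1. The test for any difference among the 3 groups passed for 11 genes (0.0704%) and for 0 members, with adjusted p = 0.0616 for Egln1 and adjusted p = 0.1003 for both Hif1a and Egln3 (limma moderated F). The comparisons with naive cultures share the naive libraries.

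Priming asks whether an earlier bout of crystal inflammation left a mark on these genes. In primed against non-primed cultures 0 of the 8 members passed, as did 0 genes (0%), and 0 members had an unadjusted p below 0.05 where 197 genes (1.26%) did (limma). No member separated these groups without overlap, where 6.31% of genes did so higher and 5.25% lower. The difference was -0.15 for Hif1a (95% interval -0.45 to 0.15), 0.01 for Egln1 (-0.15 to 0.17) and 0.12 for Egln3 (-0.25 to 0.50). It was 0.12 for Epas1 (-0.73 to 0.96), -0.01 for Arnt (-0.22 to 0.21) and -0.01 for Egln2 (-0.26 to 0.25). For Vhl it was 0.04 (-0.21 to 0.30) and for Hif1an 0.07 (-0.10 to 0.25). In this fit the interval of Egln1 was the narrowest of these 8 and that of Epas1 the widest. Its spread is shared with the naive libraries, and it did not pair libraries by number. With the 2 groups fitted alone, the SE was 0.0593 for Arnt and 0.0652 for Egln1. That of Epas1 was then 0.185, against 0.373 in the main fit. The widths thus depend in part on the naive libraries.

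Promoter windows are shown for Hif1a, Egln1 and Egln3, the members that separated injected from naive cultures. Each runs from 250 bases before to 50 bases after a transcript start given by RefSeq on GRCm38.p6, 5′ to 3′ on the gene's own strand. Capitals mark the letters ACGTG and GCGTG on either strand, the core of the HIF response element. Hif1a lies at chr12:73907617-73907916 on the plus strand, Egln1 at chr8:124949205-124949504 and Egln3 at chr12:54203825-54204124, both on the minus strand. The Hif1a window lies inside the GENCODE span given above, which begins upstream at 73901375 with another transcript.
Hif1a: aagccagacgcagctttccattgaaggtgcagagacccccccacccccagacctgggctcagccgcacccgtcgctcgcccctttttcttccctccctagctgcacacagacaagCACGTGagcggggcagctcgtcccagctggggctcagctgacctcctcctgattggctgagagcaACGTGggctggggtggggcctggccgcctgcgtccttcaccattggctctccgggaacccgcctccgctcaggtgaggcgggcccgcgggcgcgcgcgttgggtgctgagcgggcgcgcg
Egln1: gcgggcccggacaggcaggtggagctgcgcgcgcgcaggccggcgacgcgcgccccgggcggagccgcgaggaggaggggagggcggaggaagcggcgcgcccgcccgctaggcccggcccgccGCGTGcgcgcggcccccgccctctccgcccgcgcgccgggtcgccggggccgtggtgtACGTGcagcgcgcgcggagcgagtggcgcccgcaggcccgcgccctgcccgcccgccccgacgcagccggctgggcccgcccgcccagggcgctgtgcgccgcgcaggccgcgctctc
Egln3: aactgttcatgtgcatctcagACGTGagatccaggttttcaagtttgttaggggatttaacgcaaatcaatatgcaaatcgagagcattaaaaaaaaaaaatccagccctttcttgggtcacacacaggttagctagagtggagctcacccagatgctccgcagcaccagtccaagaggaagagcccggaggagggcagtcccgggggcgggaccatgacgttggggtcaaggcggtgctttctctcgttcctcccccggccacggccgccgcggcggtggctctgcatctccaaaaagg

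Hif1a held 3 matches to ACGTG, of which 2 are the same CACGTG read on both strands, an E-box that other factors also bind. Egln1 held 1 match to ACGTG and 1 to GCGTG, starting 68 and 126 bases before that start, and Egln3 held 1 match to ACGTG, 229 bases before it. Of the members that did not separate, Arnt held 1 match to GCGTG and Vhl and Hif1an held 0. The Egln2 windows, which belong to 2 starts, held 6 matches and 1 match, and 2 of the 6 are likewise the same CACGTG read on both strands. Over all 32851 promoter windows, 19.6% held ACGTG, 32.4% held GCGTG and 43.8% held either, so matches of this kind are common. A window was found for 7 of the 8 genes, Epas1 being the exception.

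**Figure D3:**
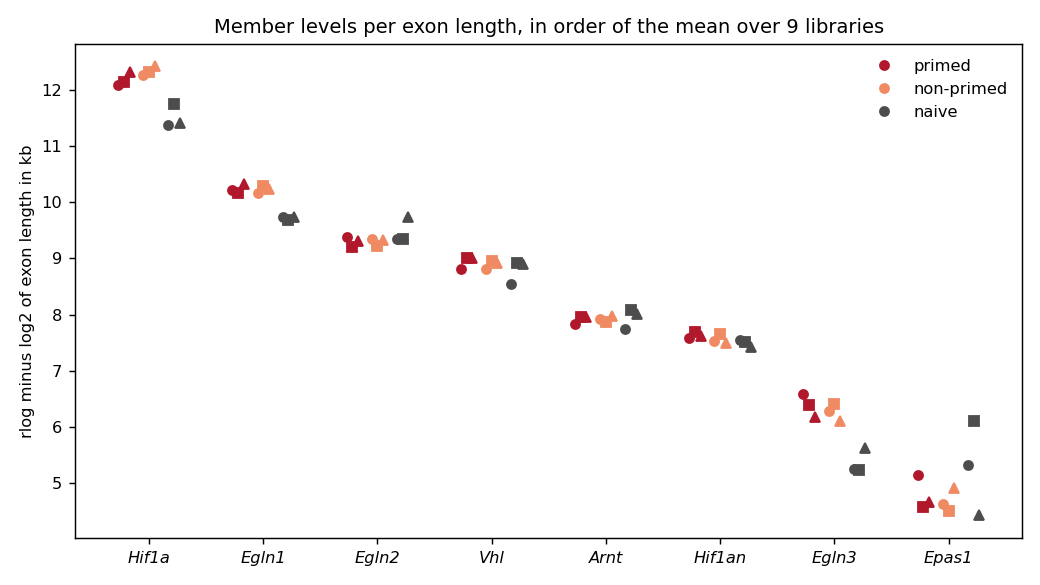
Level of each gene per exon length, as rlog minus log2 of the exon length in kb, for each library, with circles, squares and triangles for replicates 1 to 3. The order runs from Hif1a at 11.37 to 12.42 down to Epas1 at 4.42 to 6.10, and the Egln1 to Egln2 step is wider in injected than in naive cultures.

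To compare the genes with each other, levels were taken per exon length (rlog minus log2 of the exon length in kb). Hif1a was the highest in each group, followed by Egln1, Egln2, Vhl, Arnt, Hif1an, Egln3 and Epas1, an order by mean that was the same in all 3 groups. Neighbours in this order did not overlap within a group, except Egln1 and Egln2, and Egln3 and Epas1, both in naive cultures. On this scale Hif1a exceeded Epas1 by 7.39 ± 0.39 in primed, 7.66 ± 0.15 in non-primed and 6.23 ± 0.69 in naive cultures (SD, n = 3 each), so Hif1a was the dominant alpha subunit in every library. Its gap over Arnt was 4.27 ± 0.09 in primed, 4.41 ± 0.05 in non-primed and 3.57 ± 0.14 in naive cultures.

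Gaps between the prolyl hydroxylases were compared for all 3 pairs. Egln1 exceeded Egln2 per exon length by 0.84, 0.96 and 1.02 in primed cultures 1 to 3, by 0.82, 1.06 and 0.90 in non-primed cultures and by 0.38, 0.34 and 0.01 in naive cultures. All 6 injected libraries had a wider gap than all 3 naive ones. The gap of Egln2 over Egln3 was narrower, at 2.78, 2.82 and 3.13 in primed, 3.08, 2.82 and 3.23 in non-primed and 4.09, 4.12 and 4.10 in naive cultures. Again no injected library overlapped a naive one. The gap of Egln1 over Egln3 did overlap, at 3.63 to 4.15 in primed, 3.88 to 4.12 in non-primed and 4.11 to 4.48 in naive cultures. These gaps are differences within a library, and restate the member differences above and were given no test and no share over other gene pairs.

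The rest of the pathway divided into regulators and targets. Of 20 HIF partners, coactivators and turnover genes, 19 were tested and 0 passed in either comparison with naive cultures (limma), with a median difference of -0.04 in primed and 0.003 in non-primed cultures. The smallest p-values among them were those of Os9, a lectin reported to bind HIF1A and its hydroxylases, at 0.30 (SE 0.08) and 0.04 (SE 0.08) in primed and non-primed cultures, and of the coactivator Crebbp at -0.32 (SE 0.09) and -0.28 (SE 0.09). Of 17 other oxygen-dependent dioxygenases, 0 passed either, with medians of -0.05 and -0.03. Jmjd6, a lysyl hydroxylase, differed by 0.44 (SE 0.09) and 0.30 (SE 0.09), and Alkbh5, an RNA demethylase, by 0.30 (SE 0.09) and 0.29 (SE 0.09). Over all tested genes the median was -0.001 in primed and 0.009 in non-primed cultures.

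Most listed targets were higher in injected than in naive cultures, on lists chosen with earlier results of these data known. The HIF targets not on the separate glycolysis list numbered 22, among them Slc2a1, Pfkfb3 and Pfkfb4, which also act in glucose use. Of these 22, 21 were higher in each comparison, with a median of 0.56 in primed and 0.49 in non-primed cultures. In each comparison 3 passed, all higher, where 0.0960% and 0.115% of all genes passed higher. Car9, a carbonic anhydrase, rose by 1.41 (SE 0.17, limma adjusted p = 0.0345) in primed and 1.22 (SE 0.17, adjusted p = 0.0483) in non-primed cultures. Bnip3, a mitophagy receptor, rose by 0.70 (SE 0.09, adjusted p = 0.0345) and 0.76 (SE 0.09, adjusted p = 0.0303). Ndrg1 passed in primed cultures, at 0.66 (SE 0.08, adjusted p = 0.0345), and was at 0.52 (SE 0.08, adjusted p = 0.0583) in non-primed ones. Pdk1, which limits entry of pyruvate into mitochondria, passed in non-primed cultures, at 0.70 (SE 0.09, adjusted p = 0.0435), and was at 0.66 (SE 0.09, adjusted p = 0.0519) in primed ones. Of 17 glycolysis genes, 17 were higher in primed cultures (median 0.54) and 16 in non-primed cultures (median 0.41), and Slc16a3, the lactate exporter, alone passed, at 1.06 (SE 0.12, adjusted p = 0.0345) and 1.03 (SE 0.12, adjusted p = 0.0303). Without naive 2 the HIF targets past the threshold numbered 7 in primed and 6 in non-primed cultures, and without naive 3 they numbered 8 in each, but without primed 2, primed 3 or any 1 non-primed library 0 passed in either. For glycolysis the counts without naive 1, naive 2 and naive 3 were 4, 5 and 6 in primed and 4 each in non-primed cultures, and 0 without primed 2, primed 3 or any 1 non-primed library. The replicate block also joined naive libraries to injected ones of the same number, a pairing that the replicate correlations did not back. With the block, the non-primed calls of Bnip3 and Slc16a3 (limma adjusted p = 0.0501 each) and Pdk1 (adjusted p = 0.0647) were lost. Car9 was the 1 HIF target left there. Aldoc, an aldolase, passed with the block in primed (1.30, adjusted p = 0.0365) and non-primed cultures (1.27, adjusted p = 0.0427), and not without it (adjusted p = 0.0764 and adjusted p = 0.0616). Slc16a3 and Aldoc were then the 2 glycolysis genes past the threshold in primed cultures. With the macrophage covariate 0 genes of either list passed in either comparison.

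**Figure D4:**
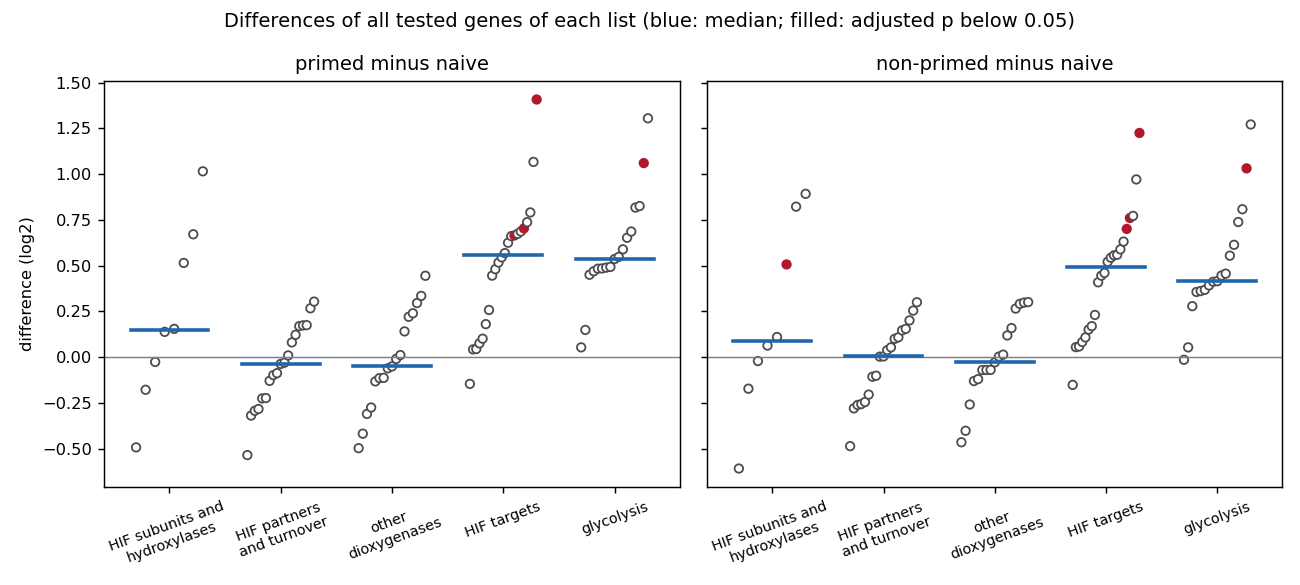
Difference in rlog (log2) from naive cultures of each tested gene in 5 lists, sorted within a list, for primed and non-primed cultures, with the median in blue and genes past the threshold filled. The medians of HIF targets and glycolysis lie at 0.41 to 0.56, those of HIF partners and other dioxygenases between -0.05 and 0.003.

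Macrophage markers followed the same groups, all 14 being higher than naive in each comparison, with medians of 2.01 in primed and 1.85 in non-primed cultures and 0 past the threshold. Naive 2 had a macrophage mean of 9.99, inside the range of the injected cultures. Its Egln1 of 11.54 and its Egln3 of 6.64 were the lowest of all libraries. Its Hif1a of 14.31 was the highest of the naive libraries and below all injected ones. With the macrophage mean as a covariate, Egln1 differed by 0.57 (SE 0.10, limma adjusted p = 0.244) in primed and 0.56 (SE 0.10, adjusted p = 0.158) in non-primed cultures. Egln3 then differed by 1.10 (SE 0.25, adjusted p = 0.248) and 0.97 (SE 0.24, adjusted p = 0.197). Hif1a was at 0.49 (SE 0.18, adjusted p = 0.308) and 0.65 (SE 0.17, adjusted p = 0.206), smaller than without the covariate. The macrophage mean was 7.80 in naive 1 and 7.45 in naive 3, against 9.69 to 10.88 in injected cultures. As naive 2 alone among the naive libraries reached that range, the covariate largely follows the groups. With this design, macrophage RNA and injection cannot be told apart. The part of skeletal muscle RNA, whose marker mean separated the injected libraries from the naive ones, was not tested.

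**Figure D5:**
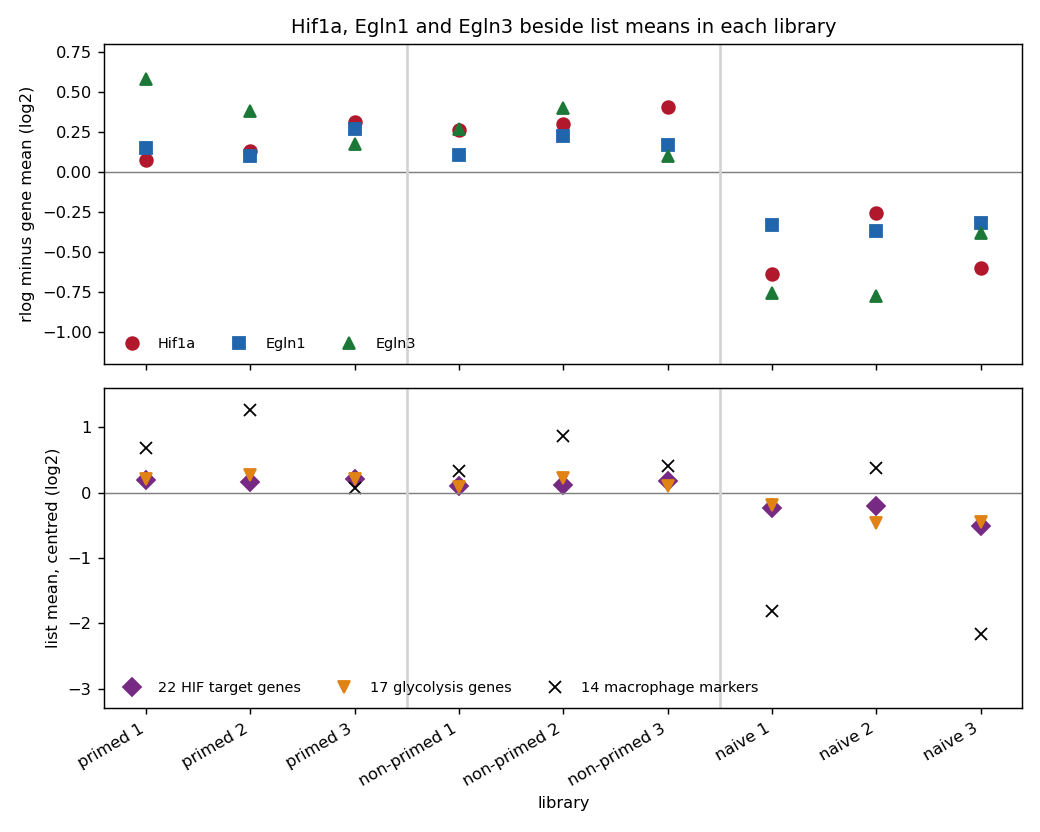
Hif1a, Egln1 and Egln3 as rlog minus the gene's mean (upper panel, log2), beside the centred mean of 22 HIF targets, 17 glycolysis genes and 14 macrophage markers (lower panel, log2), in each library. The 3 genes and the means of HIF targets and glycolysis are lower in the 3 naive libraries, and the macrophage mean, before centring, is 7.80, 9.99 and 7.45 in naive 1 to 3.

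The genes with the most similar profiles were found by the root mean square difference between centred rlog values over the 9 libraries. For Hif1a these were Tmem45a (0.07), Pdk1 (0.09) and Fuca2 (0.12), against a root mean square of 0.38 for the profile of Hif1a itself. For Egln1, whose profile had 0.25, the closest were Atp6v1b2 (0.06) and Higd1a (0.07). Pdk1 and Higd1a are themselves on the list of HIF targets. For Egln3 the closest were Rgs10 (0.18), Lmcd1 (0.18) and Txlnb (0.21), against a profile of 0.48. Epas1, with a profile of 0.51, was closest to Tsc22d1 (0.13), Esr1 (0.14) and Zfp703 (0.14), which share its high value in naive 2. The matches of Egln2 were Ldah (0.02), Nudt4 (0.02) and Snx33 (0.04), which share its high value in naive 3. The profiles of Arnt, Vhl and Hif1an were nearly flat (0.09, 0.13 and 0.08), and their closest genes were Ankra2 (0.04), Arf5 (0.05) and Bod1 (0.03).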

How the data were processed

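The submitters' processing notes name GRCm38 as the genome and, as tools, DESeq2, featureCounts, Subread 1.6.1, STAR 2.5.4a and cutadapt 2.5. No source used here gives the annotation release, strand or rlog settings. The authors deposited 1 table of rlog values on a log2 scale for all 9 libraries, which scales libraries for depth and draws genes with few reads towards their mean, which understates changes in such genes. The table holds no counts, so precision rests on 3 libraries per group.

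Columns were matched to samples by name, and symbols were found for 47224 of 47729 identifiers. Genes that varied with a mean of at least 3 were tested, 15623 in all, which removed 12134. All 9 libraries entered 1 fit of group means in limma 3.58.1 in R 4.3.3, with a mean-variance trend and 6 residual degrees of freedom. The fit was also run on simulated data with the same spread in all groups, which does not test the unequal spread seen here. Tests were two-sided, adjusted by Benjamini-Hochberg over all tested genes. Coordinates and exon lengths are those of GENCODE M21 on GRCm38.

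The members and the gene lists (148 genes, all matched) were chosen with earlier results of these data known. All members are named, with list genes that passed in any comparison, or else the smallest p-values of a list, and the 3 closest profiles per member, of which 1 is printed for the flat ones and 1 of another member is not reported here. Replicate numbers were checked by correlating deviations from group means. Same-numbered primed and non-primed libraries gave 0.418, 0.608 and 0.1002, each above the limit of 0.1 set for pairing, the last barely. These were taken as paired, although primed 1 with non-primed 3, of different numbers, gave 0.275. Same-numbered pairs with naive libraries ran from -0.160 to 0.152 and were not taken as paired. Of these, non-primed 1 with naive 1 (0.152) and primed 3 with naive 3 (0.101) also lay above 0.1. The design text says that numbers need not identify a mouse. The main fit, with its primed against non-primed intervals, did not use the pairing of primed with non-primed libraries. The block was an alternative only, and alternatives are given below. It was set over all 9 libraries, so it also joined naive libraries by number, which these correlations did not back.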

Additional observations from a re-analysis of the deposited data

How the results depend on the processing

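The differences of Hif1a, Egln1 and Egln3 from naive cultures kept their sign in all 19 alternatives, and their calls did not: of the 19, Egln1 passed in 5 for primed and 4 for non-primed cultures, Egln3 in 3 and 2, and Hif1a in 2 and 3. The cause was not tested. With no counts deposited, no limit from depth can be given.

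The members past the threshold in non-primed against naive cultures (1 in the main analysis) numbered 0 with no filter on low values, no variance trend, a robust prior, libraries centred on the median, quantile normalization, the macrophage covariate, the replicate block or the 2 groups fitted alone, 3 with sample weights, and 0 to 3 without 1 library. In primed against naive cultures (0) they numbered 1 with a minimum mean of 5 or quantile normalization, 3 with sample weights and 0 to 3 without 1 library. Between primed and non-primed cultures (0) sample weights gave 1, Egln1, at 0.13 (adjusted p = 0.0493). For any difference (0) they gave 3, and leaving out 1 library gave 0 to 2. These weights were 10.41 for non-primed 1 and 7.29 for primed 3, against 0.13 to 1.65 for the other libraries.

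All genes past the threshold in non-primed against naive cultures (22) numbered 0 with no filter, 5 with no variance trend, 13 with a robust prior, 621 with sample weights, 1 with the macrophage covariate, 7 with the 2 groups fitted alone and 0 to 355 without 1 library. In primed against naive cultures (16) they numbered 0 with no filter, no trend or the 2 groups alone, 733 with weights, 1 with the macrophage covariate, 51 with the replicate block and 0 to 356 without 1 library. Between primed and non-primed cultures (0), weights gave 2109. For any difference (11), no filter, no trend and the macrophage covariate gave 0, quantile normalization 2, weights 2485, and leaving out 1 library 0 to 217. With the replicate block 17 genes passed in non-primed and 0 in primed against non-primed cultures, and no other member call changed.

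Signs turned only where the difference was small and not past the threshold. For Arnt, weights gave 0.11 in primed and 0.077 in non-primed against naive, and 0.031 between primed and non-primed cultures, where centring gave 0.0008 and quantile normalization 0.0013. Without 1 library Arnt ran from -0.12 to 0.039, from -0.12 to 0.044 and from -0.027 to 0.035 in these comparisons. With the macrophage covariate Egln2 was at 0.0087, 0.0009 and 0.0078, and between primed and non-primed cultures at 0.0036 with quantile normalization and -0.044 to 0.039 without 1 library. In that comparison weights gave -0.042 for Egln3 and 0.0001 for Hif1a, and leaving out 1 library gave -0.038 to 0.044 for Egln1 and -0.059 to 0.23 for Epas1. In non-primed against naive cultures weights gave -0.0047 for Hif1an, and leaving out 1 library gave -0.015 to 0.17 for Vhl.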
